A study of Mus musculus with 6 samples.

Results

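Polyamine metabolism was examined in bone marrow progenitors of control mice and of mice targeted for loss of the transcription factors c-Myc and N-Myc. The set held the 9 genes Odc1, Srm, Sms, Amd1, Sat1, Oaz1, Oaz2, Azin1 and Smox. They were listed by name, with earlier results of these data known. A probe set, a group of array probes read together as 1 value, was included when its only annotated gene symbol was 1 of these. The array held 14 such probe sets among 45037 non-control probe sets, and they covered 7 of the 9 genes. Amd1 had none, and Sms shared all of its annotated probe sets with its pseudogene Sms-ps. Both genes therefore stand outside the counts.

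Polyamines are small positively charged molecules that bind nucleic acids and are needed for growth and translation. Ornithine decarboxylase (Odc1) makes putrescine from ornithine, and S-adenosylmethionine decarboxylase (Amd1) supplies the aminopropyl groups that spermidine synthase (Srm) and spermine synthase (Sms) add in turn. Sat1 acetylates polyamines for export or breakdown, and spermine oxidase (Smox) turns spermine back into spermidine. Antizymes (Oaz1, Oaz2) bind ornithine decarboxylase and send it to the proteasome, whereas the antizyme inhibitor Azin1, an enzymatically inactive relative of the decarboxylase, binds the antizymes. Odc1 is a textbook direct target of MYC through E-boxes, the short DNA motifs that MYC binds with its partner MAX.

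The sorted bone marrow cells lacked lineage markers and carried Sca1, CD150 and CD48, and the mice were 8 weeks old, on a mixed background. Control mice carried floxed alleles of c-myc and N-myc (c-myc f2 N-myc f2), and double knockout (dKO) mice carried the same alleles with MxCre, a recombinase driven by an interferon-responsive promoter. Both groups received 2 daily treatments with pI-pC, an interferon inducer, and were analysed 3 days after the last one. Each group had 3 arrays, with 2 mice in each control pool and 3 mice in each dKO pool. MxCre was present in the dKO mice alone and is active in many cell types, so an effect of the transgene cannot be told apart from gene loss in the sorted cells. The tissue label of control 1 names LT-HSCs, although its gate and title match those of the other pools.

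Values are RMA expression values on the log2 scale, and a change is dKO minus control. Myc stood at 10.79, 10.95 and 10.47 in the control pools and at 7.99, 7.87 and 7.44 in the dKO pools, a change of -2.97 ± 0.22 (SE; limma, adjusted p = 0.000458). Of the 3 Mycn probe sets, 1417155_at fell by 5.27, and the other two did not pass the threshold. The Myc values of the dKO pools still lay above the array medians of 5.90 to 5.94. The labels do not say which of the Myc and Mycn probe sets target floxed exons, so how complete the loss was cannot be read from these values. The gate genes Cd48 (11.09 to 11.69) and Slamf1, which encodes CD150 (7.74 to 9.58), were bright on all 6 arrays, and Ly6a, which encodes Sca1, was not analysed here. Xist stood at 9.10 in control 1 and 10.50 in dKO 1, against 5.03 to 5.86 elsewhere. Markers of other blood cells moved with the groups. Of the measured markers, 6 of 8 T and NK cell genes, 5 of 7 megakaryocyte genes and 3 of 4 mast cell and basophil genes were higher in dKO. Lower were 3 of 6 B and lymphoid progenitor genes and 3 of 6 granulocyte and monocyte genes. Over all genes 2.45% were higher and 2.03% lower. Neither the 4 erythroid nor the 4 macrophage markers gave a call. All 4 erythroid changes were above 0, and 3 of the 4 macrophage changes were. All dKO pools lay above all control pools in 3 erythroid and 0 macrophage genes, beside 12.7% of all genes. Fewer cells of a type and less RNA per cell cannot be told apart in such pools.

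Among the polyamine genes, Srm fell and no probe set rose. The count was 1 lower and 0 higher of 14 probe sets (limma, Benjamini-Hochberg adjusted over all probe sets, threshold 0.05). Over all probe sets 1.78% were lower and 1.83% higher, or 3.6% in all, and a single call among 14 is too few to set these genes apart from that background. At an unadjusted p under 0.05 there were 1 lower and 1 higher probe set, beside 8.7% lower and 7.25% higher, or 15.9%, of all probe sets. The median change of the 14 was 0.13, beside 0.03 over all probe sets, and 10 of the 14 changes were above 0. Several of these probe sets report the same gene. At the brightest probe set of each of the 7 genes, 4 changes were below 0 and 3 above, with a median of -0.01. Over all 18193 genes 7712 were below 0 and 10481 above, with a median of 0.05. The pools did not overlap in 3 of the 14, beside 21.3% of all probe sets.

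**Figure D1:**
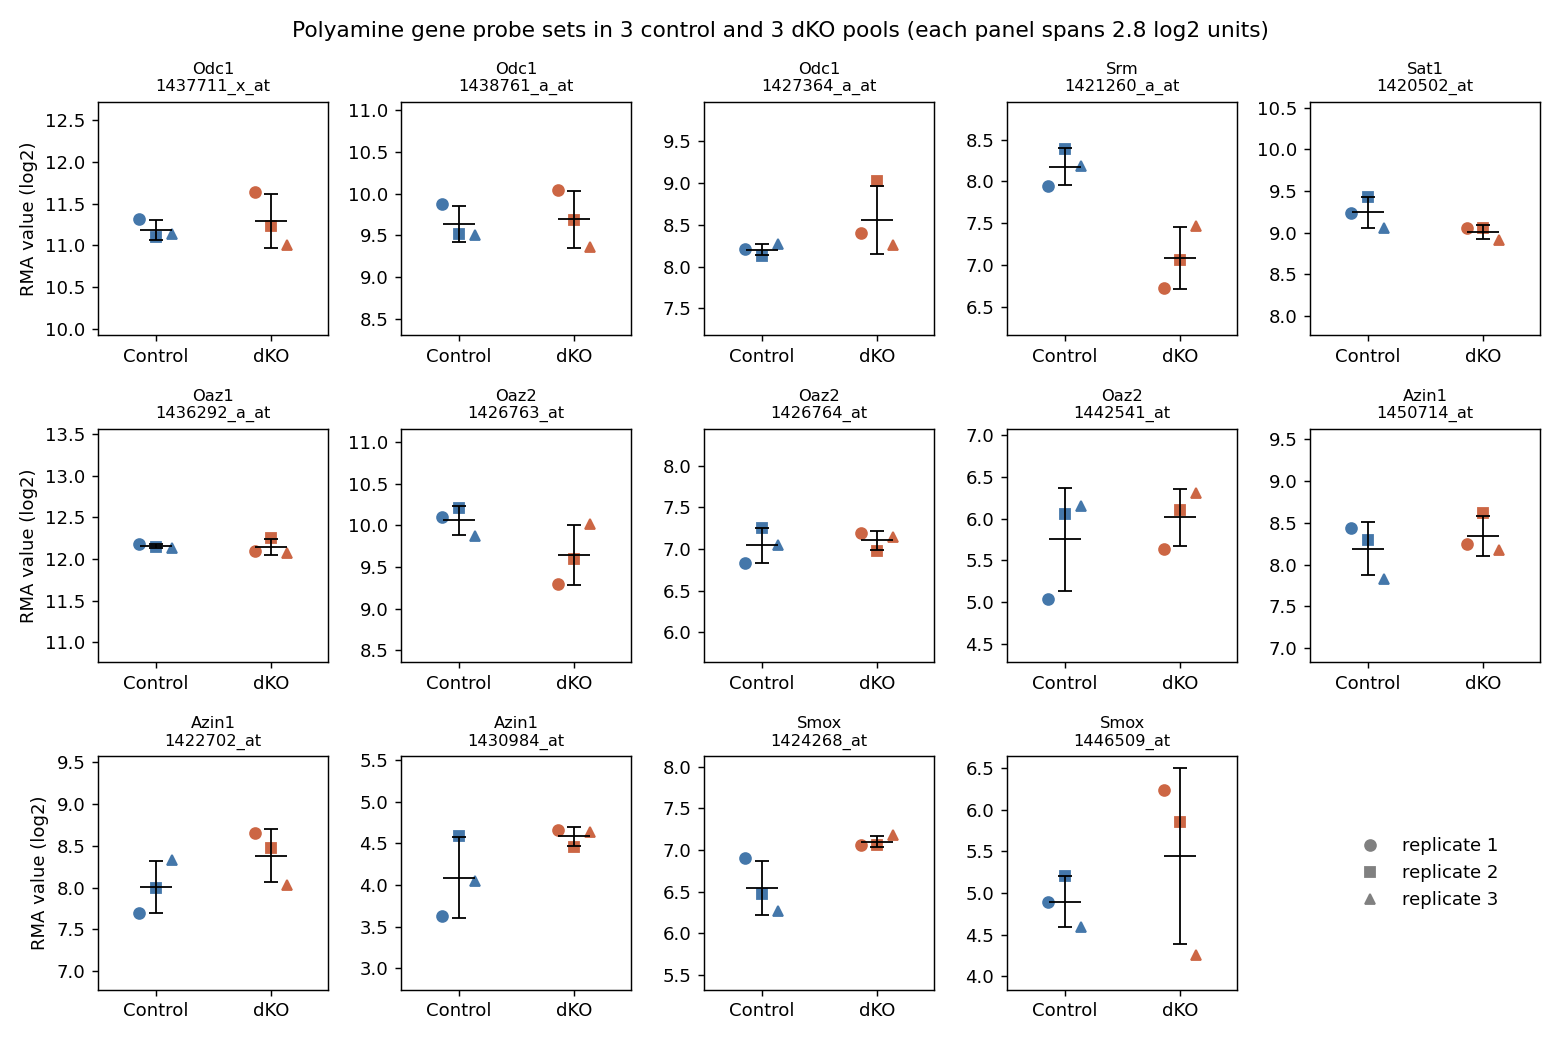
RMA values (log2, vertical axes) of the 14 probe sets in 3 control pools (blue) and 3 dKO pools (orange), with 1 symbol shape per replicate number, and the mean and SD as black bars. The dKO pools of Srm lie between 6.72 and 7.47, below its control pools at 7.95 to 8.39, whereas the pools of Odc1 and Oaz1 overlap.

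The first step of the pathway showed no call. The brightest Odc1 probe set (1437711_x_at) stood at 11.32, 11.10 and 11.13 in control and at 11.64, 11.23 and 11.00 in dKO. The dKO pools held both the highest and the lowest of the 6 values. The change was 0.10 ± 0.21 (SE; 95% confidence interval -0.37 to 0.57, adjusted p = 0.88), so a fall of more than 1.29-fold lay outside the interval. The probe set 1438761_a_at stood at 9.88, 9.51 and 9.50 in control and 10.04, 9.68 and 9.36 in dKO, a change of 0.06 (interval -0.45 to 0.56). The third, 1427364_a_at, stood at 8.21, 8.13 and 8.27 in control and 8.40, 9.02 and 8.26 in dKO, a change of 0.36 (interval -0.15 to 0.87, adjusted p = 0.508). Its mean was raised by dKO 2, while dKO 3 lay among the controls. The sign of the 2 brighter probe sets was not stable. Without dKO 1, the pool with the highest values of both, their changes were -0.07 and -0.12.

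Promoters of the polyamine genes were searched for the E-box CACGTG and, as a related motif, for the sequence CACGCG, on both strands and with overlapping matches counted, in the 250 bases before each start in RefSeq (GRCm38.p6). Of the 9 genes 7 had an entry, with 8 starts in all, and Srm and Azin1 had none. CACGTG was found before 1 of the 8 starts, beside 6.02% of all 32851, and CACGCG before 3, beside 7.62%. Read on the other strand the latter is written CGCGTG, while the E-box is a palindrome. The stretches below show these motifs in capitals, in the gene of the first enzyme, its main antizyme and the spermine synthase gene, all written 5′ to 3′ on the strand of the gene. They lie at chr12:17544663-17544807 (plus strand) for Odc1, chr10:80826414-80826479 (plus strand) for Oaz1 and chrX:157492448-157492513 (minus strand) for Sms.
Odc1: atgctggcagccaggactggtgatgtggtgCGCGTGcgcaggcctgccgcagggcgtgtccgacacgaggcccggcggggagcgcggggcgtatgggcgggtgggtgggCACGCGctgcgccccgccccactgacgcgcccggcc
Oaz1: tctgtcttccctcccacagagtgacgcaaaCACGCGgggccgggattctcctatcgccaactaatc
Sms: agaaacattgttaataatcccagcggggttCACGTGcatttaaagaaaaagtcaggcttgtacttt
The Odc1 stretch holds CACGCG at 2 places, 1 on each strand, and no CACGTG. Bases after each start, or further than 250 before it, were not searched, so an E-box there would be missed. A further Sms start, inside the gene, has 1 CACGCG before it, and the windows of Amd1, Oaz2, Sat1 and Smox hold neither motif. A match describes these letters alone, and binding was not measured.

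Srm, the gene of spermidine synthase, was measured by 1 probe set (1421260_a_at). It stood at 7.95, 8.39 and 8.19 in control and at 6.72, 7.06 and 7.47 in dKO. Every dKO pool lay below every control pool, with a gap of 0.48 between the groups. The means were 8.17 ± 0.22 and 7.08 ± 0.38 (SD, n = 3), and the change of -1.09 ± 0.23 (SE; interval -1.62 to -0.57) is a fall of 2.13-fold (limma, adjusted p = 0.0403). In a fit to 1 probe set a gene, adjusted over 18193 genes, adjusted p was 0.0224; that fit called 5.97% of all genes, 2.85% lower and 3.12% higher. In the fit to all probe sets the call of Srm depended on the arrays kept. With 1 array left out, calls over all probe sets also dropped, from 1622 to between 661 and 1472. Leaving out dKO 3 kept the call of Srm (adjusted p = 0.0251). It was lost when the array left out was control 1 (0.0693), control 2 (0.157), control 3 (0.135), dKO 1 (0.118) or dKO 2 (0.1), and the change lay between -1.29 and -0.91. It was also lost after quantile (-1.04, adjusted p = 0.0624) or cyclic loess normalization (-1.04, adjusted p = 0.0639).

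Markers of other blood cells also differed between the groups, some lower in dKO as Srm was and others higher. The mean value over the 6 granulocyte and monocyte markers ran from 8.78 to 9.72 in control and from 7.04 to 8.01 in dKO. That of the 6 B and lymphoid progenitor markers ran from 7.05 to 7.62 and from 5.49 to 5.86. In these lists 5 and 4 of the 6 changes were below 0, so not every marker fell. The mean of the 8 T and NK cell markers ran from 6.23 to 6.77 in control and from 7.91 to 8.08 in dKO, and that of the 7 megakaryocyte markers from 7.59 to 7.79 and from 9.53 to 9.79. The part of these shifts in the fall of Srm was not tested.

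The second aminopropyl transferase gene, Sms, could be read only through 3 probe sets annotated to Sms and Sms-ps together, which cannot be ascribed to either. The probe set 1434190_at stood at 9.21, 8.96 and 8.95 in control and 8.69, 8.46 and 7.89 in dKO, a change of -0.69 ± 0.23 (SE; interval -1.22 to -0.16) that did not pass (adjusted p = 0.176). The probe set 1421052_a_at stood at 10.03, 10.01 and 10 in control and 9.78, 9.80 and 9.04 in dKO, a change of -0.47 (adjusted p = 0.374). In both, all dKO pools lay below all control pools, as did 10.6% of all probe sets, and dKO 3 was the lowest. The third and dimmest, 1428699_at, changed by -0.18 with overlapping groups.

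**Figure D2:**
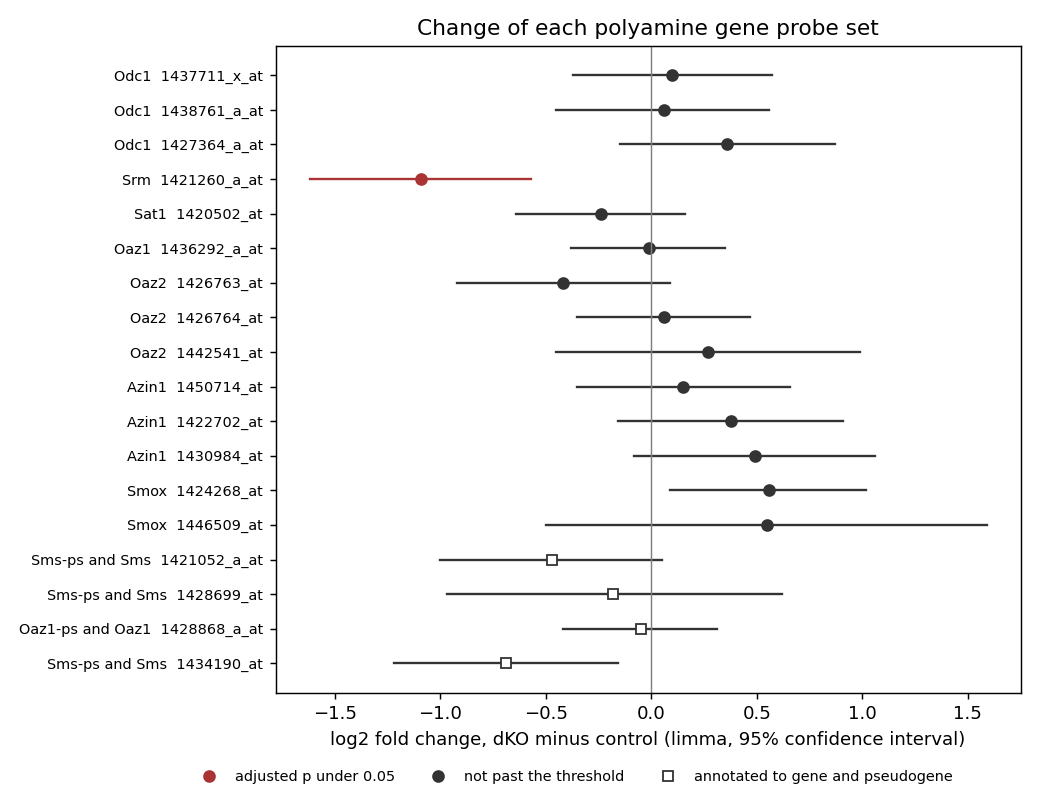
Change of each probe set (log2, dKO minus control, horizontal axis) with its 95% confidence interval from limma. Filled circles are the 14 probe sets of the 7 genes and open squares the 4 that the annotation gives to a gene and its pseudogene together. The interval of Srm (-1.62 to -0.57, red) stands below 0, and that of Oaz1 (-0.38 to 0.35) is centred on it.

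The regulators of ornithine decarboxylase gave no call. Oaz1, the main antizyme gene, stood at 12.18, 12.15 and 12.13 in control and 12.10, 12.25 and 12.07 in dKO. All 6 pools lay within a narrow range, and the change was -0.01 ± 0.16 (SE; interval -0.38 to 0.35), with 0.11 after quantile and 0.03 after cyclic loess normalization. A further probe set annotated to Oaz1 and its pseudogene Oaz1-ps together changed by -0.05. The brightest Oaz2 probe set (1426763_at) stood at 10.10, 10.21 and 9.87 in control and 9.30, 9.60 and 10.02 in dKO. Here dKO 1 and dKO 2 were below every control and dKO 3 was not. The change was -0.42 ± 0.22 (SE; interval -0.92 to 0.09, adjusted p = 0.422), and the other Oaz2 probe sets changed by 0.06 and 0.27, so the 3 did not share a sign.

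Azin1 had 3 probe sets, and all 3 changes were above 0 and did not pass. The brightest (1450714_at) stood at 8.44, 8.29 and 7.83 in control and 8.24, 8.62 and 8.17 in dKO, a change of 0.15 ± 0.22 (SE; interval -0.35 to 0.66). The probe set 1422702_at stood at 7.70, 7.99 and 8.33 in control and 8.65, 8.47 and 8.03 in dKO, a change of 0.38 (interval -0.16 to 0.91, adjusted p = 0.51). These probe sets ordered the control pools in opposite ways. The dimmest (1430984_at, 3.63 to 4.66) changed by 0.49 (interval -0.08 to 1.06, adjusted p = 0.399).

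Of the catabolic genes, Smox had the higher values in dKO and Sat1 slightly lower ones, and neither passed. The brighter Smox probe set (1424268_at) stood at 6.90, 6.47 and 6.27 in control and 7.06, 7.06 and 7.18 in dKO. All dKO pools lay above all control pools, as did 10.7% of all probe sets, with a gap of 0.16. The change was 0.56 ± 0.20 (SE; interval 0.09 to 1.02), or 1.47-fold, with an unadjusted p of 0.0235 and adjusted p = 0.214. The dimmer Smox probe set (1446509_at) stood at 4.89, 5.20 and 4.59 in control and 6.23, 5.85 and 4.25 in dKO. There dKO 3 was the lowest of the 6 pools, and the change of 0.55 had an interval of -0.50 to 1.59. Without dKO 3 it was 1.15 (adjusted p = 0.0544).

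Sat1 stood at 9.24, 9.43 and 9.06 in control and 9.06, 9.06 and 8.91 in dKO, with the groups 0.00039 apart. The change was -0.24 ± 0.18 (SE; interval -0.64 to 0.16, adjusted p = 0.599). Sat1 and Sms lie on the X chromosome, and the pools with Xist signal, control 1 and dKO 1, were one in each group. Without both, the change of Sat1 was -0.26.

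Whether Srm differed from the other polyamine genes was examined on each array, by subtracting its value from that of every other probe set. Srm was chosen for this after its value was seen. For the brightest Odc1 probe set the difference was 3.37, 2.72 and 2.94 in control and 4.92, 4.17 and 3.53 in dKO, a shift of 1.19. Srm had the lowest change of all member probe sets (-1.09), so the sign of the 13 shifts was fixed in advance. They lay between 0.67 and 1.65, and in 11 of the 13 all dKO pools lay above all control pools. The same held for 76.5% of all probe sets. The two-sided exact permutation p was 0.1 for these 11, the smallest that 3 against 3 arrays can give, and 0.2 and 0.3 for the others. Adjusted over the 13 comparisons, the values were between 0.118 and 0.3. No p under 0.05 could be reached with these arrays, so the test cannot tell whether Srm differed from the other members.

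The genes nearest to Srm in pattern were taken as those with the smallest root mean square difference over the 6 arrays, after each gene's brightest probe set was centred on its own mean. They were Phgdh (0.073), the first enzyme of serine synthesis, Rps19 (0.10), a protein of the small ribosomal subunit, and Siglech (0.11), a surface receptor known from plasmacytoid dendritic cells. Phgdh stood at 10, 10.47 and 10.40 in control and 8.88, 9.09 and 9.49 in dKO, and fell by 1.14 (adjusted p = 0.0297). Rps19 fell by 1.10 (adjusted p = 0.0167), and Siglech changed by -0.95 and did not pass (adjusted p = 0.093). The calls of Phgdh and Rps19 were lost without control 2 (0.123 and 0.082), control 3 (0.118 and 0.0688), dKO 1 (0.0976 and 0.0628), dKO 2 (0.0847 and 0.0522) or control 1 and dKO 1 together (0.104 and 0.122). Siglech passed in 3 of 17 alternative settings, among them the fit without dKO 3 (-1.18, adjusted p = 0.0422). As in Srm, dKO 1 was the lowest and dKO 3 the highest of the dKO pools in each of these genes, and control 2 the highest of all 6. The genes were picked for likeness to Srm on these same arrays. Their falls, the gap between their groups, their p-values near the threshold and the shared order of pools therefore follow from the choice. They are a description and lend no support to the fall of Srm.

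**Figure D3:**
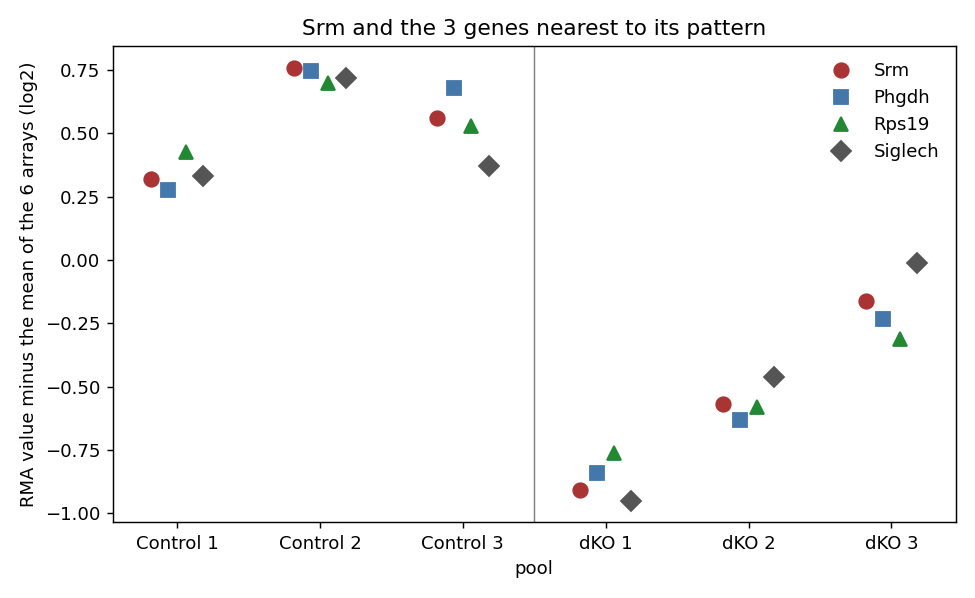
Values of Srm, Phgdh, Rps19 and Siglech in each pool (log2, each gene minus its mean over the 6 arrays). In all 4 genes the 3 control pools lie above the 3 dKO pools, and the dKO pool nearest to the controls is dKO 3, at 7.47 for Srm before centring. Phgdh, Rps19 and Siglech were picked for their likeness to Srm on these arrays.

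The wider pathway was followed in 33 genes, of which 28 had a probe set with 1 symbol, each read at its brightest. Of these 1 fell and 0 rose, beside 2.03% lower and 2.45% higher over the brightest probe sets of all genes. At an unadjusted p under 0.05 there were 5 lower and 0 higher, beside 8.73% lower and 8.6% higher, or 17.3%, of all genes. In 5 genes all dKO pools lay below all control pools and in 0 above them, beside 10.7% and 12.7%, or 23.4%, of all genes. The median change was -0.0019, beside 0.05 over all genes, with 14 changes on each side of 0. The gene that fell was Slc18b1, a vesicular polyamine transporter. It stood at 4.96, 4.49 and 5.08 in control and 3.62, 3.65 and 3.80 in dKO, a change of -1.16 ± 0.20 (SE; interval -1.62 to -0.70, adjusted p = 0.0193). All 6 values were dim, below the array medians of 5.90 to 5.94, and a filter on dim probe sets removed the gene. With that filter Mtap was the wider gene that passed (adjusted p = 0.0494), and 4.73% of the genes it kept were lower. The call of Slc18b1 was lost without control 1 (adjusted p = 0.0702), control 3 (0.0856), dKO 1 (0.0696), dKO 2 (0.0606), or control 1 and dKO 1 together (0.17).

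At a looser adjusted p of 0.1 the number of lower genes was 5, with Mtap, Ahcy, Adi1 and Slc7a1 beside Slc18b1, and 3.42% of all genes were lower at that threshold. These 4 are named because of their values, and none passed at 0.05. With any single array left out their adjusted p lay between 0.101 and 0.291, so none of the 4 then passed at 0.1 either. Methylthioadenosine phosphorylase (Mtap) cleaves the by-product that both spermidine and spermine synthase release. Its brightest probe set stood at 8.31, 8.22 and 8.68 in control and 7.70, 7.81 and 7.48 in dKO, a change of -0.74 ± 0.19 (SE; adjusted p = 0.0853). Its other 3 probe sets changed by -0.81, -0.50 and -0.47, and in all 4 every dKO pool lay below every control pool. Ahcy, which removes S-adenosylhomocysteine, stood at 10.55, 10.32 and 10.46 in control and 9.78, 9.85 and 9.87 in dKO, a change of -0.61 ± 0.16 (adjusted p = 0.0894). Adi1, a dioxygenase of methionine salvage, changed by -0.75 (adjusted p = 0.0921) in its brightest probe set and by -0.27 and -0.02 in the others, whose groups overlapped.

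Over the 8 measured genes of S-adenosylmethionine supply and methionine salvage, 0 passed, 6 changes were below 0 and the median was -0.38. All dKO pools lay below all control pools in 3 of the 8, beside 10.7% of all genes. Mat2a had no probe set with 1 symbol. Slc7a1, an importer of arginine and ornithine, stood at 9.70, 9.76 and 9.53 in control and 9.20, 8.98 and 8.65 in dKO, a change of -0.72 ± 0.20 (adjusted p = 0.0945), with -0.74 and -0.36 in its other probe sets. The median of the 6 transport genes was -0.24. Of the others, named after their values were seen, Slc3a2 (0.47, adjusted p = 0.341) and Atp13a3 (0.42, adjusted p = 0.447) were on the other side of 0. Atp13a3 encodes a polyamine transporter of the endosome, and its other probe sets changed by 0.28 and -0.04, with overlapping groups.

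**Figure D4:**
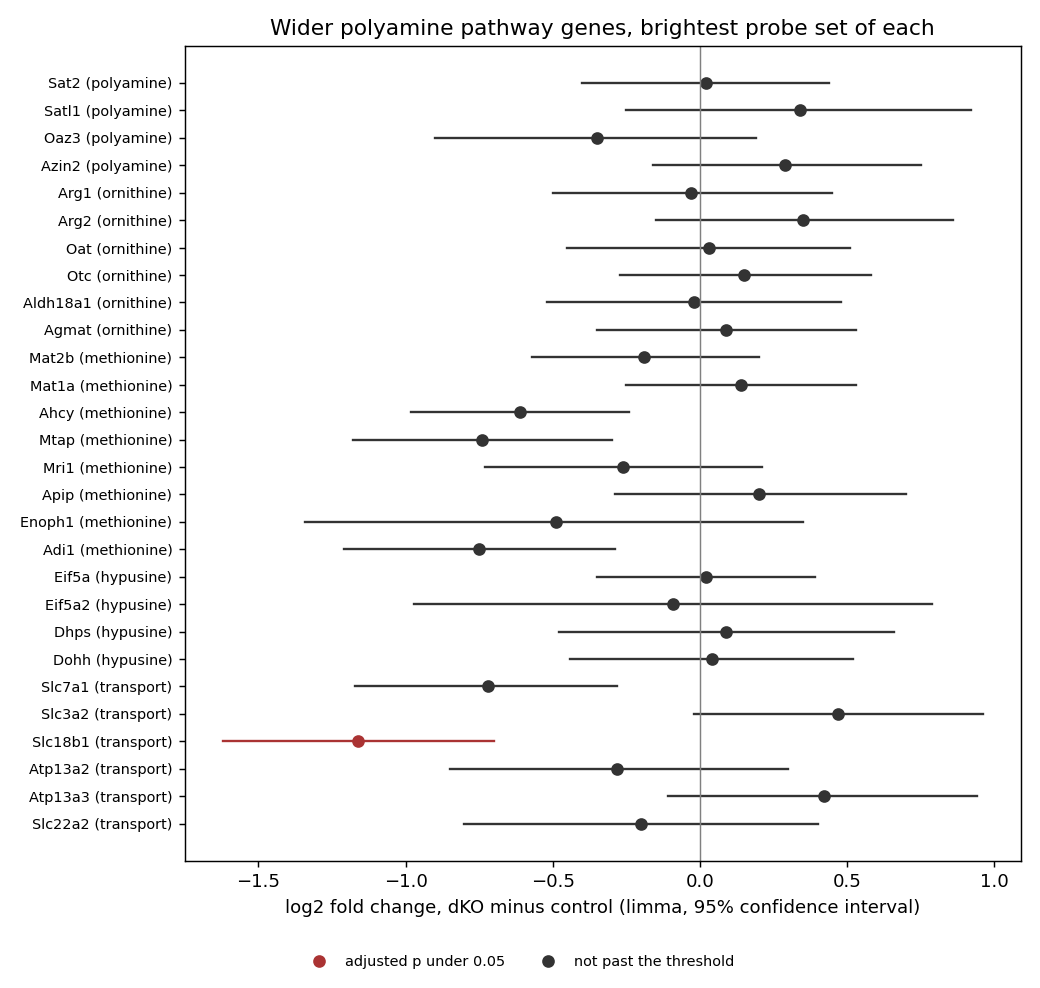
Change of 28 wider pathway genes (log2, dKO minus control, horizontal axis) with the 95% confidence interval from limma, grouped by role as named in brackets. Slc18b1 (-1.16, red) passed the threshold, and the intervals of Mtap, Ahcy, Adi1 and Slc7a1 stand below 0 without passing after adjustment.

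Spermidine is also the substrate for hypusine, the modified lysine of the translation factor eIF5A. Eif5a stood at 12.27, 12.04 and 12.13 in control and 12.17, 12.12 and 12.22 in dKO, a change of 0.02 ± 0.16 (SE; interval -0.35 to 0.39). The enzyme genes Dhps (0.09, interval -0.48 to 0.66) and Dohh (0.04, interval -0.44 to 0.52) overlapped between groups as well. None of the 4 hypusine genes passed, and their median change was 0.03. The 6 ornithine genes, among them the arginases Arg1 (-0.03) and Arg2 (0.35), lay between -0.03 and 0.35, and the 4 measured further polyamine enzymes and regulators between -0.35 and 0.34, with 0 calls in either list and 0 at an unadjusted p under 0.05.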

How the data were processed

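Expression was measured on Affymetrix mouse arrays in 3 control and 3 dKO pools. Per the labels' protocols, Trizol RNA went through 2 rounds of Nugen amplification before biotin labelling. Per the submitters' processing notes, the authors computed the deposited log2 values by RMA; the version of RMA and the set of arrays it ran on were not given in the sources used here. Precision is limited by having 6 arrays.

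Of 45101 rows, 64 were control probe sets. The platform annotation gave 1 symbol to 34945, several to 932 and none to 9160, and 34741 of the first were matched by gene identifier to RefSeq (GRCm38.p6). limma 3.58.1 in R 4.3.3 (lmFit, eBayes, group as the only term, two-sided) was fitted to all 45037 non-control probe sets with Benjamini-Hochberg adjustment and a threshold of 0.05, and tested on simulated data. Each array is a separate pool, so SDs describe the spread between pools. The limma SEs, intervals and p-values also draw on the variances of all fitted probe sets. Alternatives covered filtering, probe set choice, scaling, variance model, a replicate block and left-out arrays. The named genes were all members, wider genes past the threshold, Eif5a, Dhps, Dohh, Myc, Mycn and the 3 genes nearest to each called member. Mtap, Ahcy, Adi1, Slc7a1, Slc3a2, Atp13a3, Arg1 and Arg2 fall outside this rule and were named after their values were seen. Members and lists were chosen with earlier results of these data known. Figures were drawn with matplotlib 3.10.9.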

Additional observations from a re-analysis of the deposited data

How the results depend on the processing

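The number of member probe sets lower in dKO was 1 and became 0 after quantile or cyclic loess normalization and without control 1 and dKO 1 together, and ran from 0 to 1 with single arrays left out. The number higher was 0 in every setting run. Of the wider genes 1 was lower, beside 2.03% of all genes. The number was 2 with the mean of a gene's probe sets (3.34% of all genes), 3 with the trend and robust variance model (2.95%), 5 at an adjusted p under 0.1 (3.42%), 0 without control 1 and dKO 1 together and from 0 to 1 with single arrays left out. With the filter on dim probe sets it was 1 as well, but Mtap in place of Slc18b1. None was higher in any setting. Mtap, Ahcy, Adi1 and Slc7a1 had adjusted p between 0.12 and 0.173 under the replicate block. The replicate block changed no call at 0.05 among these genes, with Srm at -1.09 (adjusted p = 0.0457) and counts of 1 and 0 for members and wider genes. The numbers did not pair the arrays (correlation of deviations 0.062, -0.035 and 0.0056; 1 of 3 numbers correlated best with its own), and the block gave 1252 calls over all probe sets beside 1622. That count was 565 without control 1 and dKO 1 together, 2509 with array weights and 2666 at an adjusted p under 0.1.

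Signs turned only in genes that passed in no setting. Oaz1 was 0.11 after quantile and 0.03 after cyclic loess normalization and 0.02 without both pools with Xist signal. Without both pools, Oaz2 1426764_at was -0.09, Odc1 1437711_x_at -0.0032, Dhps -0.07 and Dohh -0.0027. Dohh was -0.09 with the mean of probe sets and -0.02 with array weights. With single arrays left out, Odc1 ran from -0.07 to 0.25 (1437711_x_at) and from -0.12 to 0.22 (1438761_a_at), Oaz1 from -0.07 to 0.02, Oaz2 from -0.05 to 0.16 (1426764_at) and from -0.08 to 0.47 (1442541_at), Azin1 1450714_at from -0.02 to 0.28, Eif5a from -0.03 to 0.08, Dhps from -0.07 to 0.31 and Dohh from -0.10 to 0.19. Srm kept its sign in 17 settings and its call in 9 of them. The cause of these changes was not tested. The dimmest members, 3 of the 14 probe sets, lay below the array median.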
